A study of Mus musculus with 6 samples.

Results

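Mylk4 and the other myosin light chain kinase genes of the mouse, Mylk, Mylk2 and Mylk3, were followed through an ATAC-seq data set of a thigh muscle, the quadriceps femoris. ATAC-seq counts the sites where a transposase can reach the DNA, so a higher count in a region (a peak) means more accessible chromatin. One group of animals lacked Prr14 (Prr14-KO, 3 libraries, replicates 4, 5 and 7) and were set against wild-type animals (Prr14-WT, 3 libraries, replicates 3, 4 and 8). PRR14 is a protein of the nuclear lamina that tethers heterochromatin to the nuclear edge. The nuclei came from frozen muscle. No age, sex, deleted part of Prr14 or link from library to animal is given in the sources used here, so the spread between libraries may be technical in part. All peaks that the deposited annotation names for a member were taken, which gave 48 of 75134 peaks: 28 for Mylk4, 11 for Mylk, 6 for Mylk2 and 3 for Mylk3. All 48 passed the filter on low counts. Mylk4 was selected on its KO against WT counts in these same libraries, where its peaks were lower in Prr14-KO muscle, and the other members were added as its relatives with their values known. The KO against WT values of all 4 genes are therefore a description, and no p-value is given for them.

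Myosin light chain kinases are switched on by calcium-bound calmodulin and phosphorylate the regulatory light chain of myosin, which in striated muscle raises the force of a contraction at a given calcium level. Mylk2 encodes the skeletal muscle kinase, Mylk3 the cardiac one, and Mylk the smooth muscle and non-muscle kinases together with telokin, a short protein made from a start site late in the gene. Mylk4 is a less studied relative expressed in striated muscle. Myosin phosphatase, built from the catalytic subunit gene Ppp1cb and a targeting subunit such as Ppp1r12a or Ppp1r12b, removes the phosphate again.

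The promoter windows that carry changed peaks are shown first, because at Mylk4 and Mylk3 the peaks over annotated start sites moved in opposite directions. Both windows are RefSeq sequence of GRCm38.p6, run from 250 bases before to 50 bases after the start, and are written 5′ to 3′ on the minus strand of their chromosomes. Capitals mark matches to the binding motif of MEF2, the factor family named in the title of the study, and to the E-box CANNTG, the core motif of myogenic factors. The motifs did not overlap.
Mylk4, chr13:32783915-32784214: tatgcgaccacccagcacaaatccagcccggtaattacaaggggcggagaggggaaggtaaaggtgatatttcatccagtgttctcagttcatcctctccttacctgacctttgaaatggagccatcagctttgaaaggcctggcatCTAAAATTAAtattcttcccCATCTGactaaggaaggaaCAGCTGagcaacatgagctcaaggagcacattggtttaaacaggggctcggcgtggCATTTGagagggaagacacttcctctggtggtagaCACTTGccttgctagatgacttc
Mylk3, chr8:85380992-85381291: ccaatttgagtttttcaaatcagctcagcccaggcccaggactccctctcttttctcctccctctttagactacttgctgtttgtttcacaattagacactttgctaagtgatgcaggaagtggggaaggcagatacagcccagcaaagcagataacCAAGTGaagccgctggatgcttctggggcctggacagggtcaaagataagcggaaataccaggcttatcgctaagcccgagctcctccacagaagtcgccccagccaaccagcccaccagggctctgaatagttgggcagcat
The Mylk4 window held 1 MEF2 match, CTAAAATTAA, whose first base lies at position -103 from the start site, and 4 E-boxes. The Mylk3 window held 0 MEF2 matches and 1 E-box. Of the 32851 windows of this table, 3.19% held a MEF2 match and 72.3% an E-box, searched on both strands. The MCAT element CATTCC (14.7% of windows) and the AP-1 motif TGANTCA (7.81%) had no match in either sequence. A match is a description of the letters and shows no binding. The Mylk4 window lies within the peak chr13:32783060-32784446, and the Mylk3 window overlaps the peak chr8:85380392-85381228. The windows at another Mylk3 start (chr8:85365275-85365574) and at a Mylk start (chr16:34784700-34784999) overlapped no member peak. They held 0 MEF2 matches, 0 E-boxes and 1 MCAT element each, and the Mylk window also 1 AP-1 match. No window was used for Mylk2.

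Total counts in peaks ran from 9346968 to 12061822 in Prr14-KO libraries and from 7608514 to 11575061 in Prr14-WT libraries. Spearman correlations over all tested peaks were 0.939 to 0.949 within Prr14-KO, 0.920 to 0.933 within Prr14-WT and 0.904 to 0.922 between the genotypes. Mitochondrial peaks took 5.23% to 8.32% of the counts in Prr14-KO and 5.85% to 11.6% in Prr14-WT. The Prr14 start-site peak, chr7:127470286-127472182, had 51.2, 59.6 and 70.6 CPM in Prr14-KO libraries, against 62.2, 66.4 and 57.1 CPM in Prr14-WT libraries, which overlap, and with the deleted part not given it does not check the genotype labels. Levels in this text are counts per 1000000 (CPM) with TMM scaling, and log2 fold changes are KO over WT with their standard error (SE). A peak was called lower or higher at a Benjamini-Hochberg adjusted p below 0.05 in edgeR's quasi-likelihood test over all 73896 tested peaks.

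Mylk4 chromatin was less accessible in Prr14-KO muscle over nearly the whole gene span of the deposited annotation and just upstream of that span. In bulk muscle, fewer nuclei of one type and less accessible chromatin in each nucleus cannot be told apart. Of its 28 peaks, 21 were lower, 0 were higher and 7 were not called. Over all tested peaks 4.23% were lower and 2.77% higher, shares that stand here as background only. The median log2 fold change of the 28 peaks was -1.62, beside -0.01 over all tested peaks. Summed over its peaks, Mylk4 had 236, 196 and 192 CPM in Prr14-KO replicates 4, 5 and 7, against 505, 645 and 387 CPM in Prr14-WT replicates 3, 4 and 8. Each Prr14-KO library was below each Prr14-WT library, and the mean in Prr14-KO was 0.405 of that in Prr14-WT (208 ± 24.2 and 513 ± 129 CPM, SD, n = 3 each). In the authors' deposited table, 17 of the Mylk4 peaks were lower and 0 higher at an adjusted p below 0.05, where 0.872% of the peaks with an adjusted p were lower.

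**Figure D1:**
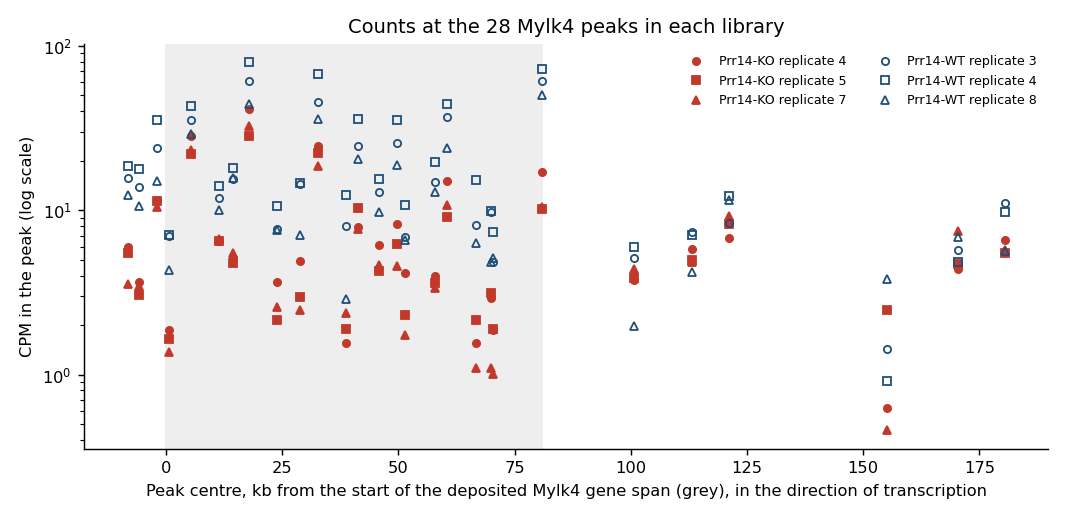
CPM on a log scale at each of the 28 Mylk4 peaks in each library, against the distance in kb from the start of the deposited gene span (grey band) in the direction of transcription; filled red marks are Prr14-KO and open blue marks are Prr14-WT. In the gene span and upstream of it all Prr14-KO libraries lie below all Prr14-WT libraries at 22 of 22 peaks, and past the end of the gene each of the 6 peaks overlaps between genotypes.

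The change followed position along the locus. The deposited gene span of Mylk4 (ENSMUSG00000044951) is chr13:32700834-32781716 on the minus strand, so that transcription runs toward lower coordinates. The RefSeq span, chr13:32700824-32806773, is longer and also takes in the 3 peaks described here as upstream. All 19 peaks that touch the deposited span and the 3 peaks upstream of it had Prr14-KO libraries entirely below Prr14-WT libraries. Over all tested peaks 11.2% had that arrangement. Of these 22 peaks, 21 were called, with log2 fold changes from -2.63 to -0.86. Each of the 6 peaks past the 3′ end of the gene overlapped between genotypes, none was called, and their log2 fold changes lay between -0.73 and -0.07. Their sum did not overlap: it averaged 30.0 ± 2.11 CPM in Prr14-KO and 38.0 ± 3.52 CPM in Prr14-WT (SD, n = 3 each), with the highest Prr14-KO library at 32.2 CPM and the lowest Prr14-WT library at 34.1 CPM.

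The peak over the 3′ end of the gene carried the most counts among the 5 called Mylk4 peaks with the largest changes. At chr13:32699102-32702590, classed as 3′ UTR, it had 17.1, 10.2 and 10.4 CPM in Prr14-KO libraries, against 60.9, 72.3 and 50.2 CPM in Prr14-WT libraries. The highest Prr14-KO library stayed well below the lowest Prr14-WT one, and the log2 fold change was -2.29 (SE 0.20). The largest fold difference stood in an intron, at chr13:32714629-32715276. This weak peak had 1.57, 2.13 and 1.10 CPM in Prr14-KO libraries, against 8.12, 15.3 and 6.31 CPM in Prr14-WT libraries. Its mean in Prr14-KO was 0.161 of that in Prr14-WT (log2 fold change -2.63, SE 0.31), and the Prr14-WT libraries differed among themselves by more than 2 times.

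A pair of further intronic peaks and an upstream peak complete the 5. At chr13:32723381-32724341 the Prr14-KO libraries had 3.97, 3.61 and 3.38 CPM, against 14.9, 19.8 and 12.9 CPM in Prr14-WT (log2 fold change -2.12, SE 0.25). At chr13:32731165-32732929 they had 8.25, 6.24 and 4.57 CPM, against 25.7, 35.5 and 18.8 CPM in Prr14-WT (-2.08, SE 0.22). The Prr14-KO means of these intronic peaks were 0.231 and 0.238 of the Prr14-WT means. Upstream of the deposited span, at chr13:32787099-32787937, the Prr14-KO libraries had 3.65, 3.04 and 3.47 CPM, against 13.8, 17.8 and 10.6 CPM in Prr14-WT (-2.06, SE 0.26).

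The strongest Mylk4 peak in the sum of both genotypes changed least among the called ones. This intronic peak, chr13:32762813-32764869, had 41.0, 28.5 and 32.7 CPM in Prr14-KO libraries, against 61.6, 79.4 and 44.0 CPM in Prr14-WT libraries. The highest Prr14-KO value came close to the lowest Prr14-WT value without crossing it (log2 fold change -0.86, SE 0.18). Without Prr14-KO replicate 5 it was no longer called (-0.71, SE 0.23), and likewise with the authors' library factors (-0.71, SE 0.32). An intronic peak at chr13:32770021-32770570 (-0.88, SE 0.24) lost its call under these same settings and without Prr14-WT replicate 4 (-0.72, SE 0.24). The authors' factors adjusted little for library depth, here and wherever they are used below. The remaining 19 called peaks were also lower in each of the 12 alternatives.

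Mylk4 has 3 peaks within 3 kb of an annotated start site, and the size of the difference varied among them. The peak over the internal start site, chr13:32775457-32777285, had 28.3, 22.1 and 23.3 CPM in Prr14-KO libraries, against 35.6, 42.8 and 28.9 CPM in Prr14-WT libraries. It was the one peak of the 22 that was not called (log2 fold change -0.55, SE 0.19), and it was called without Prr14-WT replicate 8 (-0.63, SE 0.19). The narrow peak by the start of the deposited span, chr13:32780846-32781148, had 1.88, 1.64 and 1.37 CPM in Prr14-KO libraries, against 6.99, 7.08 and 4.34 CPM in Prr14-WT libraries (-1.92, SE 0.36). The remaining one, chr13:32783060-32784446, holds the RefSeq promoter window printed above with its MEF2 and E-box matches. It had 11.6, 11.4 and 10.5 CPM in Prr14-KO libraries, against 23.9, 35.2 and 15.0 CPM in Prr14-WT libraries (-1.16, SE 0.21). The Prr14-KO libraries were nearly equal there, and the Prr14-WT libraries spread over more than 2 times.

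Along the 19 peaks of the gene span the log2 fold change became more negative toward the 3′ end, with Pearson r = -0.62 and Spearman rho = -0.52 against the distance into the gene. Over the alternatives Pearson r ran from -0.66 to -0.53 and Spearman rho from -0.64 to -0.40. The medians were close, at -1.655 for the 9 peaks within 40 kb of the start and -1.821 for the 10 peaks beyond. Peaks of 1 gene share libraries and chromatin, so this is a description of 19 positions. Over the 22 peaks of the span and upstream, the correlation of the log2 fold change with the log2 Prr14-WT level per kb of peak was r = 0.43.

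The Prr14-WT libraries differed in order as well as level. Replicate 4 was the highest Prr14-WT library at 22 of these 22 peaks and replicate 8 the lowest at 20. Over all tested peaks replicate 4 was the highest Prr14-WT library at 39.9%. Mylk2, where no peak was called, had much the same order, with replicate 4 highest at 5 and replicate 8 lowest at 6 of its 6 peaks. At Mylk these counts were 3 and 2 of 11 peaks. The coefficient of variation of the Mylk4 sum was 11.7% in Prr14-KO and 25.2% in Prr14-WT. It was also larger in Prr14-WT for the sums of Mylk2 (6.95% and 20.6%), Mylk (5.87% and 13.7%) and Mylk3 (25.5% and 27.6%). Without Prr14-WT replicate 4, 20 Mylk4 peaks were still called lower and the median log2 fold change was -1.36.

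**Figure D2:**
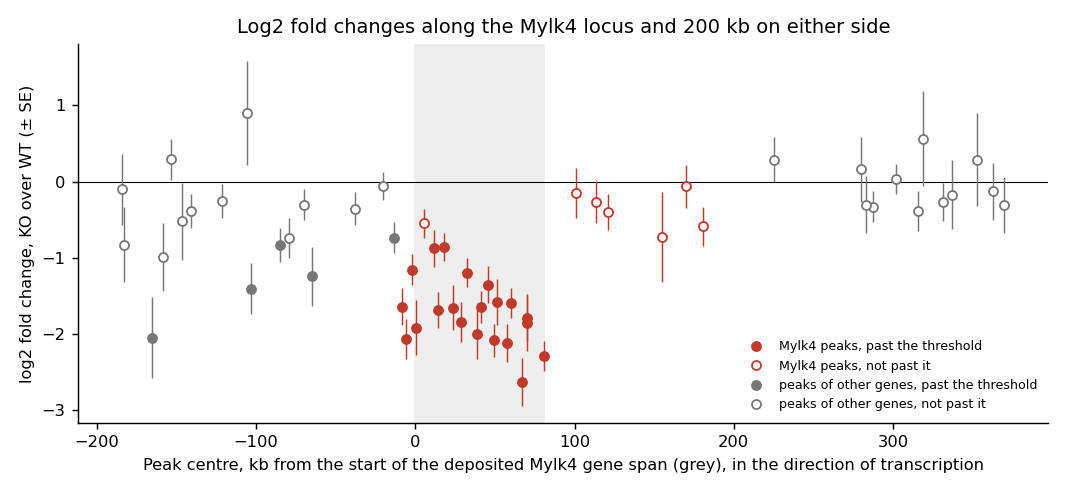
Log2 fold change (KO over WT, bars ± SE) against the distance in kb from the start of the deposited Mylk4 gene span (grey band) in the direction of transcription, for Mylk4 peaks (red) and peaks of other genes within 200 kb of them (grey); filled marks were called. Called Mylk4 peaks between -2.63 and -0.86 fill the grey band and its near upstream side, and 5 lower peaks of other genes lie upstream.

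Only the downstream edge of the changed stretch could be read from neighbouring peaks. Upstream, lower peaks of other genes stood among peaks that were not called. Called Mylk4 peaks spanned 91.3 kb, an extent that counts only peaks the annotation names for Mylk4. On the downstream side the nearest peak, 17.7 kb from the 3′ end peak and still annotated to Mylk4, had a log2 fold change of -0.15 (SE 0.32). In the 200 kb beyond the outermost Mylk4 peak on that side lay 12 tested peaks, all annotated to Gmds, an enzyme gene of fucose synthesis, and none was called (-0.39 to 0.56). The nearest of them, chr13:32555429-32556887, gave 0.29 (SE 0.29, adjusted p = 0.713). On the upstream side 5 of 17 peaks were lower and 0 higher, beside 4.23% and 2.77% of all tested peaks. The first, chr13:32794189-32795622, is annotated to Wrnip1, which encodes an interaction partner of the WRN helicase, but lies within the RefSeq span of Mylk4 (chr13:32700824-32806773). It averaged 14.0 ± 1.36 CPM in Prr14-KO and 23.3 ± 5.41 CPM in Prr14-WT (SD, n = 3 each; log2 fold change -0.74, SE 0.20, adjusted p = 0.00738). The Wrnip1 promoter peak, chr13:32801427-32802167, also lies within the RefSeq span of Mylk4. This promoter peak averaged 32.9 ± 4.51 CPM in Prr14-KO and 34.3 ± 2.62 CPM in Prr14-WT (-0.06, SE 0.19, adjusted p = 0.931).

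The other lower upstream peaks lay among the Serpinb genes, which encode intracellular protease inhibitors. At Serpinb1a the peaks chr13:32846235-32846740 and chr13:32865760-32867112 gave -1.24 (adjusted p = 0.0254) and -0.83 (adjusted p = 0.00511), at Serpinb1c a peak gave -1.41 (adjusted p = 0.00110), and at Serpinb6b a weak peak gave -2.05 (adjusted p = 0.00395). Start-site peaks of Serpinb1a and Serpinb6b were not called. The Serpinb6b call held in every alternative. The Wrnip1 call was lost without Prr14-KO replicate 5 or 7 or Prr14-WT replicate 4 (adjusted p = 0.0579, 0.0734 and 0.131), and the Serpinb1c call without Prr14-WT replicate 3 (0.112). The first Serpinb1a call was lost without Prr14-KO replicate 5 or 7 or Prr14-WT replicate 3 or 4 (0.139, 0.100, 0.0681 and 0.284), and the second without Prr14-KO replicate 5 (0.162). With the authors' factors, which adjusted little for depth, the Wrnip1 and both Serpinb1a calls were lost as well (0.455, 0.123 and 0.317).

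At Mylk2, the gene of the skeletal muscle kinase, the genotypes overlapped in the sum and at each of its 6 peaks, and none was called. Its log2 fold changes ran from -0.48 to 0.29, with a median of 0.04. Summed over the 6 peaks, Mylk2 had 336.0, 339.9 and 299.0 CPM in Prr14-KO libraries, against 293.5, 386 and 262 CPM in Prr14-WT libraries. The promoter peak, chr2:152910348-152911970, had 72.5, 75.0 and 66.0 CPM in Prr14-KO libraries, against 72.9, 96.5 and 61.1 CPM in Prr14-WT libraries (log2 fold change -0.11, SE 0.18). All 3 Prr14-KO values lay inside the Prr14-WT range. The strongest peak, inside the gene at chr2:152913437-152914880, had 87.7, 77.0 and 77.4 CPM in Prr14-KO libraries, against 76.0, 98.9 and 63.8 CPM in Prr14-WT libraries (0.02, SE 0.17).

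The other Mylk2 peaks lay upstream. The largest differences were an intergenic peak at chr2:152898465-152900040, with 43.6, 50.2 and 39.2 CPM in Prr14-KO libraries, against 31.9, 45.1 and 31.8 CPM in Prr14-WT libraries (0.29, SE 0.18), and a distal peak at chr2:152886913-152887905 of 5.22 ± 2.29 CPM in Prr14-KO and 7.20 ± 1.87 CPM in Prr14-WT (-0.48, SE 0.27). Both overlapped between genotypes. A wide peak over the 3′ end of Mylk2, chr2:152922253-152926729, carries the name of the neighbour Foxs1, a forkhead factor gene. It averaged 149 ± 19.6 CPM in Prr14-KO and 128 ± 15.5 CPM in Prr14-WT (0.22, SE 0.17, adjusted p = 0.597). Of the tested peaks of neighbouring genes within 200 kb, 2 of 19 on the upstream side were higher. On the downstream side, which includes the Foxs1 peak, 0 of 8 were higher. On either side 0 were lower, beside 4.23% lower and 2.77% higher over all tested peaks. The 2 higher peaks were an intronic peak of Bcl2l1, a cell survival gene, at 0.58 (SE 0.18, adjusted p = 0.0283), and one of Tpx2, a spindle assembly gene, at 0.67 (SE 0.23, adjusted p = 0.0489). The Bcl2l1 call was lost without Prr14-KO replicate 4 or Prr14-WT replicate 3 or 4 (adjusted p = 0.211, 0.133 and 0.0525) and with the authors' factors (0.204). The Tpx2 call was lost in 7 alternatives, with adjusted p from 0.0640 to 0.398.

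**Figure D3:**
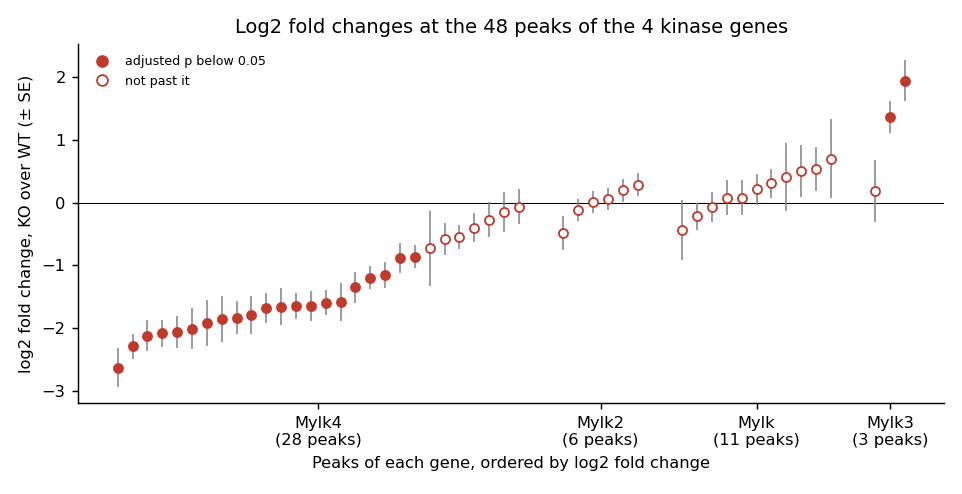
Log2 fold change (KO over WT, bars ± SE) at each of the 48 peaks of the 4 genes, ordered within each gene; filled marks were called. Mylk4 peaks run from -2.63 to -0.07, Mylk2 and Mylk peaks lie on both sides of 0 with none called, and 2 of 3 Mylk3 peaks are higher.

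Mylk, the smooth muscle and non-muscle kinase gene, had 11 weak peaks, 10 of them in its deposited span of chr16:34784921-35002420, and 0 were called by edgeR. DESeq2 and limma-voom called 0 as well, at Mylk and at Mylk2. Its log2 fold changes ran from -0.43 to 0.70 with a median of 0.21, and 8 of 11 were above 0. Summed, Mylk had 69.2, 62.7 and 69.9 CPM in Prr14-KO libraries, against 67.1, 52.9 and 68.5 CPM in Prr14-WT libraries. The genotypes overlapped, with Prr14-WT replicate 4 the lowest library. The strongest Mylk peak, in an intron at chr16:34966695-34967808, had 13.4, 12.2 and 12.3 CPM in Prr14-KO libraries, against 14.6, 14.8 and 14.5 CPM in Prr14-WT libraries. The genotypes did not overlap there, but the difference was small (log2 fold change -0.22, SE 0.22). It was the one such peak among the 11, beside 11.2% of all tested peaks with Prr14-KO libraries entirely below Prr14-WT libraries.

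A pair of Mylk peaks lay by an annotated start site late in the gene. At chr16:34992934-34993197 the Prr14-KO libraries had 1.88, 2.22 and 1.65 CPM, against 4.01, 1.65 and 2.10 CPM in Prr14-WT libraries (-0.43, SE 0.48). At chr16:34995665-34996117 they had 1.57, 2.46 and 2.38 CPM, against 1.64, 0.919 and 2.37 CPM in Prr14-WT libraries (0.41, SE 0.54). Both were weak and overlapped between genotypes. The largest Mylk log2 fold changes came from weak peaks with wide errors. The peak chr16:34862100-34862343, with as few as 6 counts in a library, had 3.03, 0.821 and 1.37 CPM in Prr14-KO libraries, against 0.617, 1.47 and 1.05 CPM in Prr14-WT libraries (0.70, SE 0.63). The peak chr16:34846873-34847606 averaged 4.48 ± 1.70 CPM in Prr14-KO and 3.10 ± 0.856 CPM in Prr14-WT (0.53, SE 0.35). The most upstream peak, chr16:34744914-34745257, reaches the start of the longer RefSeq span of Mylk (chr16:34745199-35002436) and gave -0.07 (SE 0.24). None of the 13 tested peaks of other genes within 200 kb of the Mylk peaks was called.

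Mylk3, the cardiac kinase gene, changed in the opposite direction to Mylk4. Both of its start-site peaks were higher in Prr14-KO muscle, and its remaining peak, an intergenic one, was not called (0.19, SE 0.50). At the start of the deposited gene span, chr8:85386212-85386681, the Prr14-KO libraries had 9.29, 8.05 and 5.67 CPM, against 1.85, 2.21 and 1.84 CPM in Prr14-WT libraries. The lowest Prr14-KO library was more than 2 times the highest Prr14-WT library, and the Prr14-KO mean was 3.90 times that of Prr14-WT (log2 fold change 1.95, SE 0.32). In raw counts the peak held 89, 98 and 62 in Prr14-KO libraries, against 18, 24 and 14 in Prr14-WT libraries.

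At the second Mylk3 start, chr8:85380392-85381228, which overlaps the promoter window printed above, the Prr14-KO libraries had 12.6, 14.2 and 7.77 CPM, against 2.26, 4.78 and 6.57 CPM in Prr14-WT libraries. Prr14-KO replicate 7 and Prr14-WT replicate 8 came close to each other without overlap (log2 fold change 1.37, SE 0.26). Among all tested peaks, 9.17% had Prr14-KO libraries entirely above Prr14-WT libraries. Both Mylk3 peaks were also called higher in each of the 12 alternatives, and both were higher in the authors' deposited table, where 2.44% of peaks were. None of the 26 peaks of other genes within 200 kb of the Mylk3 peaks was called. One of them, chr8:85329722-85330237, lies inside Mylk3 but is annotated to Orc6, and gave -0.40 (SE 0.52, adjusted p = 0.794).

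**Figure D4:**
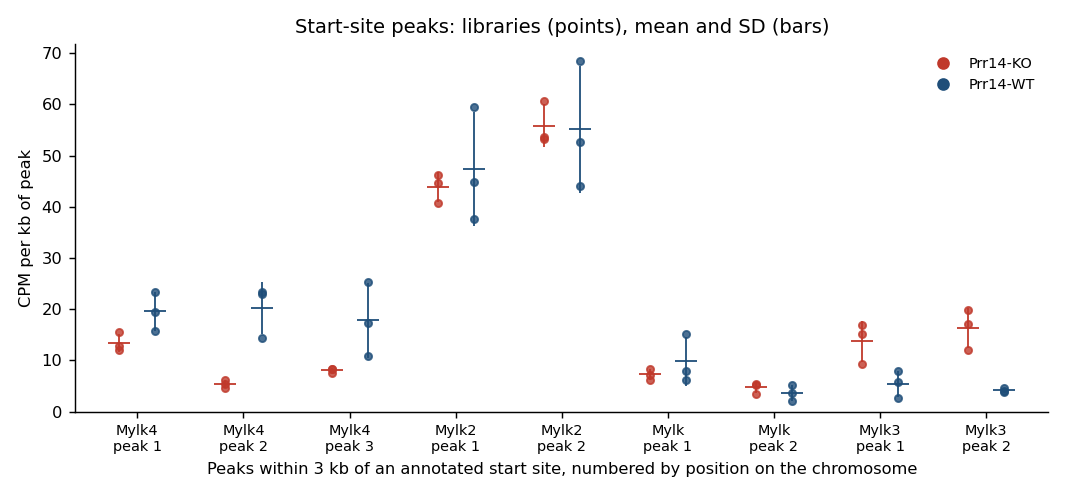
CPM per kb of peak at the 9 peaks within 3 kb of an annotated start site, with 3 libraries per genotype as points and the mean ± SD as bars, Prr14-KO (red) left of Prr14-WT (blue). Mylk2 peaks are the highest in both genotypes. In Prr14-KO 2 of 3 Mylk4 peaks were called lower and both Mylk3 peaks were called higher.

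Levels per kb of peak put the 4 genes in a different order in the 2 genotypes. Mylk2 led in both: its peak inside the gene had 55.9 ± 4.21 CPM per kb in Prr14-KO and 55.1 ± 12.3 CPM per kb in Prr14-WT, and its promoter peak had 43.9 ± 2.86 CPM per kb in Prr14-KO and 47.3 ± 11.1 CPM per kb in Prr14-WT (SD, n = 3 each). In Prr14-WT the ranges of the Mylk2 pair overlapped, although the peak inside the gene was above the promoter peak within each of the 6 libraries. Below them in Prr14-WT came the 3 Mylk4 start-site peaks, with means of 17.8 to 20.2 CPM per kb and overlapping ranges, and then the stronger late Mylk peak at 9.81 ± 4.73 CPM per kb, whose range reached into those of its neighbours in the order. The Mylk3 peaks, at 5.42 ± 2.59 and 4.18 ± 0.443 CPM per kb, stood above only the weaker late Mylk peak, which had 3.63, 2.03 and 5.22 CPM per kb in the 3 libraries, and overlapped with it. Each Prr14-WT library had less at both Mylk3 peaks than at any of the 3 Mylk4 peaks.

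In Prr14-KO the Mylk3 peaks stood directly after the Mylk2 pair, at 16.3 ± 3.92 and 13.8 ± 4.01 CPM per kb. They overlapped with each other and with the internal-start Mylk4 peak at 13.4 ± 1.80 CPM per kb, so the order among these peaks was within their spread. The other Mylk4 start-site peaks, at 8.06 ± 0.416 and 5.38 ± 0.839 CPM per kb, were below both Mylk3 peaks in every Prr14-KO library, on either side of the stronger late Mylk peak at 7.25 ± 1.09 CPM per kb. The ranges of the Mylk4 peak at 8.06 CPM per kb and the Mylk peak at 7.25 CPM per kb overlapped. The weaker late Mylk peak was again last by its mean, at 4.71 ± 1.09 CPM per kb, and overlapped with the Mylk4 peak at 5.38 CPM per kb. These are levels of accessibility per length of peak, not of transcripts.

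Other genes of light chain phosphorylation had lower peaks in Prr14-KO, none of them at a gene's nearest promoter peak. The list holds 31 genes (regulatory light chains, calmodulins, phosphatase subunits and inhibitors, other kinases that act on light chains or the phosphatase, related giant kinases, and Rhoa), of which 29 had a tested peak. Of 299 peaks, 27 were lower (9.03%) and 1 was higher (0.334%), beside 4.23% lower and 2.77% higher over all tested peaks, and the median log2 fold change was -0.15, beside -0.01. Of 25 nearest promoter peaks 0 were lower and 0 higher, with 0 at an unadjusted p below 0.05 in edgeR and 0 called by DESeq2 or limma-voom. Over all genes 0.699% of nearest promoter peaks were lower and 0.894% higher. At Ttn 2 lower peaks, and at Mylpf 1, were classed as promoter without being the nearest promoter peak of their gene. The count of lower peaks depended on which libraries were used. It was 6 without Prr14-WT replicate 4, 6 without Prr14-KO replicate 5, 10 without Prr14-KO replicate 7 and 16 without Prr14-KO replicate 4, and it was 0 with the authors' factors. The 27 peaks were picked as lower in these same libraries, so the sign of their change was nearly fixed in advance. All 27 log2 fold changes stayed below 0 in each of the 12 alternatives. Their median was -0.74, and it was -0.54 without Prr14-WT replicate 4, -0.81 without Prr14-KO replicate 5, -0.69 without Prr14-KO replicate 7, -0.77 without Prr14-KO replicate 4 and -0.54 with the authors' factors.

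Ppp1r12b, which encodes the striated muscle targeting subunit of myosin phosphatase, had the most lower peaks of the list, 9 of 20. Its largest change was an intronic peak, chr1:134911661-134912475, with 13.8, 12.5 and 10.8 CPM in Prr14-KO libraries, against 25.3, 32.9 and 21.7 CPM in Prr14-WT libraries (log2 fold change -1.11, SE 0.20, adjusted p = 5.42e-06). Ttn, the gene of the giant sarcomere protein titin, had 6 lower peaks of 62. The largest change, at chr2:76864038-76864937, was 6.06, 7.55 and 5.85 CPM in Prr14-KO libraries, against 10.3, 15.1 and 8.94 CPM in Prr14-WT libraries (-0.82, SE 0.24, adjusted p = 0.0141). Dapk2, a death-associated protein kinase gene, had 5 of 18, the largest at chr9:66223969-66224513 with 4.20 ± 0.950 CPM in Prr14-KO and 9.25 ± 2.12 CPM in Prr14-WT (-1.15, SE 0.27, adjusted p = 7.89e-04). Without Prr14-WT replicate 4 these counts were 2 for Ppp1r12b, 0 for Ttn and 1 for Dapk2. Without Prr14-KO replicate 5 they were 5 for Ppp1r12b and 0 for Ttn and Dapk2, and without Prr14-KO replicate 7 they were 5 for Ppp1r12b, 0 for Ttn and 2 for Dapk2. Without Prr14-KO replicate 4 Ttn had 2 and Dapk2 3. DESeq2 gave 3 for Ttn and 2 for Dapk2, total counts gave 3 for Dapk2, and the authors' factors gave 0 for all of them.

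The substrate genes of the kinases had called peaks in both directions, which were singled out after their values were seen. At Mylpf, the regulatory light chain gene of fast fibres, 1 of 2 peaks was lower, chr7:127214629-127215860, with 28.4 ± 2.32 CPM in Prr14-KO and 42.8 ± 4.73 CPM in Prr14-WT (-0.59, SE 0.18, adjusted p = 0.0235). This call was lost without Prr14-KO replicate 4, 5 or 7 or Prr14-WT replicate 3 (adjusted p = 0.144, 0.122, 0.0994 and 0.182) and with the authors' factors (0.649). The Mylpf promoter peak averaged 109 ± 9.28 CPM in Prr14-KO and 119 ± 18.6 CPM in Prr14-WT (-0.12, SE 0.17, adjusted p = 0.811). The single higher peak of the list lay upstream of Myl2, the regulatory light chain gene of slow and cardiac muscle, at chr5:122092594-122093657. It had 19.9, 12.8 and 9.23 CPM in Prr14-KO libraries, against 5.14, 5.42 and 8.28 CPM in Prr14-WT libraries (1.17, SE 0.24, adjusted p = 7.57e-05), and without Prr14-KO replicate 4 it was no longer called (0.83, adjusted p = 0.0604).

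Genes were ranked by likeness to Mylk4 among the 1863 genes with 10 or more tested peaks, with Mylk4 and Mylk left out. The summed CPM of Stim2, Mef2c, Ppp1r3a, Trub1 and Tsga8 followed that of Mylk4 most closely over the 6 libraries, with Pearson r on the log2 scale from 0.994 to 0.999. The 6 libraries fall into 2 genotypes, so r serves only to rank genes. Stim2, a calcium sensor gene of the endoplasmic reticulum, had 190, 175 and 174 CPM in Prr14-KO libraries, against 278, 327 and 245 CPM in Prr14-WT libraries. Mef2c, which encodes a muscle transcription factor, had 225, 204 and 212 CPM in Prr14-KO libraries, against 302, 328 and 274 CPM in Prr14-WT libraries. Ppp1r3a, the gene of the muscle subunit that targets protein phosphatase to glycogen, had 109, 87.3 and 95.9 CPM in Prr14-KO libraries, against 195, 237 and 160 CPM in Prr14-WT libraries. Each had its highest value in Prr14-WT replicate 4, as Mylk4 did. Of their tested peaks 9 of 30, 8 of 43 and 12 of 23 were lower, beside 4.23% of all tested peaks. The 5 genes were picked by likeness to Mylk4 in these libraries, so both traits follow in part from the choice. Trub1, a tRNA-modifying enzyme gene, had 2 of 10 lower and Tsga8, a testis gene on the X chromosome, 4 of 10, with sums of 7.88 to 11.3 CPM in Prr14-KO and 19.3 to 36.3 CPM in Prr14-WT at Tsga8. By rank correlation 53 genes tied at 1 with Mylk4, 1 of the 5 among them.

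Markers of fibre types and other cells were read at their nearest promoter peaks, of which 0.699% were lower and 0.894% higher over all genes. The type IIb fast fibre list had 2 of 10 promoters lower, Myh4 and Myl1, and 0 higher, and 0 were lower with the authors' factors. Its sum ran from 1253 to 1335 CPM in Prr14-KO and from 1110 to 1769 CPM in Prr14-WT, with replicate 4 highest and replicate 8 lowest among Prr14-WT libraries, the order seen at Mylk4. The type I slow fibre list, where Myl2 and Myl3 had no promoter peak, had 1 of 7 promoters higher, Tnnc1, and 0 lower, and without Prr14-KO replicate 4 none was higher. Its sum ran from 79.0 to 84.6 CPM in Prr14-KO and from 67.0 to 76.2 CPM in Prr14-WT, without overlap, in the direction of the Mylk3 start-site peaks. Their part in the Mylk4 and Mylk3 results was not tested.

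Of the other lists, DESeq2 and limma-voom called no cardiac, fibro-adipogenic, satellite cell or macrophage promoter either. Cardiac markers, of which Nppa and Tnnt2 had no promoter peak, had 0 of 3 promoters called by edgeR and 0 at an unadjusted p below 0.05, and their sum ran from 19.4 to 24.4 CPM in Prr14-KO and from 22.4 to 23.9 CPM in Prr14-WT with overlap. Smooth muscle markers, without Cnn1, had 0 of 6 called by edgeR, with 1 at an unadjusted p below 0.05, and limma-voom and edgeR without Prr14-KO replicate 5 each called 1 lower, Lmod1. Their sums ran from 142 to 162 CPM in Prr14-KO and from 147 to 181 CPM in Prr14-WT. Endothelial markers, without Pecam1, had 1 of 5 higher, Cldn5 (0 without Prr14-KO replicate 5, without Prr14-WT replicate 4 or with the authors' factors), and sums of 43.1 to 65.1 CPM in Prr14-KO and 38.1 to 58.5 CPM in Prr14-WT. Fibro-adipogenic markers had 0 of 5 called and 0 at an unadjusted p below 0.05, with sums of 70.9 to 90.4 CPM in Prr14-KO and 66.8 to 81.3 CPM in Prr14-WT. Satellite cell markers had 0 of 4 called and 1 at an unadjusted p below 0.05, and without Prr14-WT replicate 8 Pax7 was called higher, with sums of 48.6 to 60.1 CPM in Prr14-KO and 48.6 to 55.4 CPM in Prr14-WT. Of the macrophage markers only Csf1r and Mrc1 had a promoter peak, 0 were called, 0 were at an unadjusted p below 0.05, and their sums ran from 4.52 to 8.78 CPM in Prr14-KO and from 6.98 to 8.22 CPM in Prr14-WT.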

How the data were processed

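ATAC-seq libraries of mouse quadriceps femoris (3 Prr14-KO, 3 Prr14-WT) were analysed from 1 deposited table of 75134 peaks on GRCm38. Tools listed without roles in the submitters' processing notes are BWA, MACS2, Trimmomatic, bedtools, deepTools and DESeq2 1.6.3; nothing in the sources used here gives the counting tool, read shift or duplicate handling, which could change the counts. The authors deposited whole-number counts per peak and library, and a normalized signal, which is that count over a single library-wide factor. They also deposited a log2 fold change of KO over WT, p-values raw and adjusted, and a score per peak that was not used. Counts were tested by the quasi-likelihood functions glmQLFit and glmQLFTest of edgeR 4.0.16 (R 4.3.3; TMM factors, two-sided, filterByExpr with a minimum count of 10, Benjamini-Hochberg adjustment over 73896 peaks), after a check on simulated data. Alternatives were median-ratio factors, the authors' factors, total counts, no filter, DESeq2 1.42.0, limma-voom (limma 3.58.1) and leaving out each library. Counts at member peaks ran from 5 to 1138 per library. Members, gene lists and the rules for naming were chosen with earlier results of these data known. Named were, for each kinase gene, the peaks within 3 kb of a start site, the 5 called peaks with the largest changes (or 2 peaks where none was called) and the strongest peak. From the list came the 3 genes with the most called peaks, and for Mylk4 the called flanking peaks within 200 kb and the 5 genes most like it. Gene assignments are those of the deposited annotation, and distal peaks are assigned by nearness.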

Additional observations from a re-analysis of the deposited data

How the results depend on the processing

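The directions of the Mylk4 and Mylk3 results held under all 12 alternatives. Mylk4 had 19 lower peaks with the authors' factors, 21 with each other scaling, filter or tool, and 19 to 22 with 1 library left out, and 0 higher throughout. Its median log2 fold change ran from -1.73 to -1.36. Mylk3 had 2 higher peaks throughout, and Mylk and Mylk2 had none called in any setting. With the authors' factors the median over all tested peaks moved to 0.19, against -0.01 with TMM, so that values on that scale are read relative to it. These factors ran from 0.9775 in Prr14-KO replicate 7 to 1.0351 in Prr14-KO replicate 5. Total counts in peaks ran from 7608514 to 12061822, so this setting adjusted little for depth. The cause of the shift was not tested. The phosphorylation list was less stable. Its lower peaks numbered 0 with the authors' factors and 6 to 34 with 1 library left out, against 27. Its higher peaks numbered 2 with the authors' factors, with total counts or without a filter, and 0 to 3 with 1 library left out, against 1; the cause was not tested. Of the 5 genes most like Mylk4, 2 remained when promoter-class peaks were left out. By Spearman's rho 53 genes tied at the maximum, 1 of the 5 among them, so no first 5 can be picked by rank. No paired analysis was possible because the genotypes share only the replicate number 4. Weak peaks limit the reading of Mylk, whose lowest count was 6.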
